A study of Camelus dromedarius with 10 samples.

Results

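The genes described here are 8 activity-induced transcription factors and SRF, which drives some of them. They are the 4 EGR genes (EGR1, EGR2, EGR3 and EGR4), the 3 NR4A genes (NR4A1, NR4A2 and NR4A3), NPAS4 and SRF. They were chosen by name, with no measured value in the rule but with earlier results of these data known. Each name was paired with 1 Ensembl gene ID of the dromedary annotation, giving 9 of 22444 gene IDs. RNA sequencing was carried out on the supraoptic nucleus (SON) of male dromedary camels (Camelus dromedarius). Controls (n = 5) drank at will, and the water deprivation (WD) group (n = 5) went 20 days without water. Both groups had food at will. Each library came from the rostral SON of 1 side of 1 animal, punched from brain sections, so it holds every cell type of the punch. The camels were 4 to 5 years old, and the labels name no strain. Libraries are named here by group and animal number, from CON2 to CON13 for control and from WD6 to WD15 for WD.

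The SON lies above the optic chiasm in the hypothalamus and is made up of magnocellular neurones (MCNs), which release vasopressin and oxytocin and fire faster when plasma becomes more concentrated. The EGR, NR4A and NPAS4 genes are immediate-early genes: their promoters respond to synaptic or hormonal input without any need for new protein, and their transcripts are short-lived. SRF is a constitutive factor that binds the EGR1 and FOS promoters together with ELK proteins, which the ERK kinases phosphorylate, whereas NR4A1 is also known as a target of cAMP and calcium signalling through CREB. EGR proteins are zinc finger factors, NR4A proteins are orphan nuclear receptors that bind DNA without a known natural ligand, and NPAS4 is a neurone-specific factor that works as a dimer with ARNT2. The comparison of WD with control asks how much of each transcript was present after 20 days without water rather than after an acute challenge.

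Library depth limits what can be read for these genes. Control libraries held 1665098 to 7518432 counted read pairs (median 4233342) and WD libraries 4227685 to 8126641 (median 5000749), but 5 gene IDs took between 27.7% and 76.1% of each library. CON13 and WD6 stood apart, with 397495 and 1106575 counts outside those 5 gene IDs. One read pair was therefore worth 1.20 CPM (the count scaled to library size after TMM normalization) in CON13 and 0.475 CPM in WD6, against 0.0864 to 0.237 CPM in the other 8 libraries. CON13 was the highest control library for 7 of the 9 genes and WD6 the highest WD library for 6 of 9, whereas over all genes tested they were highest in 30.2% and 32.6%. Fold changes of the 9 genes are given with these libraries and without them. Intervals given for single libraries cover counting error only. Over all 10 libraries the genes had between 57 counts (EGR4) and 1044 counts (NR4A1), and because transcript lengths were not used here, the level of one gene is compared between libraries and not with that of another gene.

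With all 10 libraries, none of the 9 genes passed the threshold of an adjusted p of 0.05 in the quasi-likelihood F test of edgeR, adjusted by Benjamini-Hochberg over 14432 genes, of which 72, or 0.499%, passed. The edgeR fit without a filter on low counts, which could include all 9, also called none of them, against 0.337% of 21986 genes. EGR1, NR4A1, NR4A2, NR4A3 and SRF had enough counts to be tested, and EGR2, EGR3, EGR4 and NPAS4 did not. An unadjusted p under 0.05 was found for 2 of the 5 tested genes, EGR1 and NR4A1, and for 9.31% of all genes tested, and these 2 genes differed from control in opposite directions. DESeq2 also called 0 of the 9 genes, against 1.27% of the 16447 genes it adjusted, with 3 of the 9 (EGR1, NR4A1 and EGR3) at an unadjusted p under 0.05. The control and WD ranges overlapped for all 9 genes, where 2.62% of all genes tested had no overlap. The median log2 fold change was -0.32 over the 5 tested genes and 0.02 over all genes tested.

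**Figure D1:**
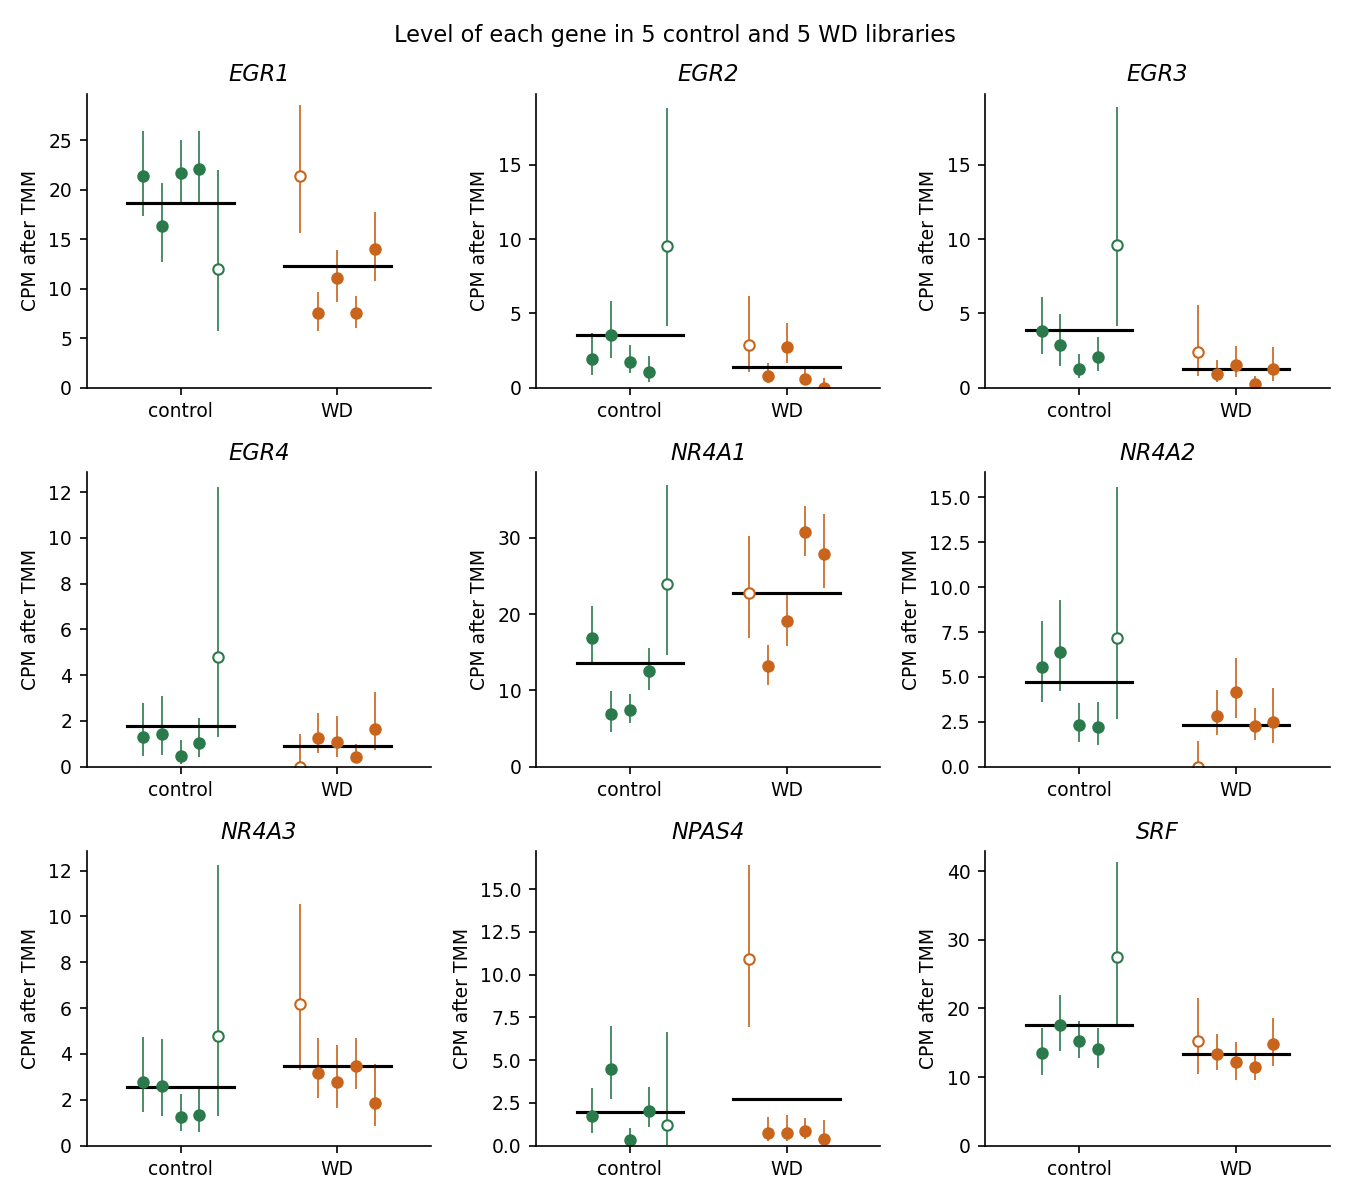
Level of each of the 9 genes in CPM after TMM scaling (vertical axes, each from 0), with 1 point per library in order of animal number and the black bar at the group mean. Thin lines are exact 95% Poisson intervals of the count (up to 3 counts where the count is 0), and open points are CON13 and WD6. EGR1 lies lower in 4 of the WD libraries than in WD6, NR4A1 lies higher in WD on average, and the open control point is the highest control for 7 of the 9 genes.

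SRF (ENSCDRG00005012609), the upstream factor of the group, was the steadiest. Control libraries held 13.5 CPM in CON2, 17.5 in CON3, 15.3 in CON4, 14.1 in CON5 and 27.5 in CON13. WD libraries held 15.2 CPM in WD6, 13.4 in WD7, 12.1 in WD8, 11.4 in WD9 and 14.8 in WD15. In all, 3 WD libraries lay below every control, and CON13, on 23 counts, was the highest of the 10. The mean was 17.6 ± 5.77 CPM in control and 13.4 ± 1.64 CPM in WD (SD, n = 5 each), a log2 fold change of -0.32 (SE 0.224, 95% interval -0.79 to 0.15, edgeR adjusted p = 0.714). Without CON13 the log2 fold change was -0.19, and without both CON13 and WD6 it was -0.24 (SE 0.186, edgeR adjusted p = 0.633). The within-group SD of log2 CPM was 0.328, which lay at the 27.1 percentile of all genes tested, whose median was 0.442.

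EGR1 (ENSCDRG00005000981), the most widely used marker of recent neuronal transcription besides FOS, was lower after WD on average. It had 100 counts in CON2, 69 in CON3, 189 in CON4, 151 in CON5 and 10 in CON13, or 21.4, 16.3, 21.7, 22.1 and 11.96 CPM. In WD it had 45 counts in WD6, 59 in WD7, 72 in WD8, 87 in WD9 and 67 in WD15, or 21.4, 7.53, 11.1, 7.52 and 14.0 CPM. In all, 4 control libraries thus sat between 16.3 and 22.1 CPM and 4 WD libraries between 7.52 and 14.0 CPM, while CON13 and WD6, the libraries of least depth, each lay in the other group's range. The mean was 18.7 ± 4.43 CPM in control and 12.3 ± 5.74 CPM in WD. The log2 fold change was -0.72 (SE 0.281, 95% interval -1.32 to -0.13), which did not pass the test (edgeR adjusted p = 0.413).

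The size of the EGR1 difference depended on the libraries kept. With 1 library left out, the log2 fold change ranged from -0.98 without WD6 (edgeR adjusted p = 0.0770) to -0.58 without WD9 (edgeR adjusted p = 0.649). Without both WD6 and CON13 it was -1.07 (SE 0.229, edgeR adjusted p = 0.0542), just short of the threshold. When the filter on low counts was also dropped, an alternative chosen after seeing the data, it was -1.05 and passed (edgeR adjusted p = 0.0434), the only fit in which any of the 9 genes did. In the 5 libraries with the most counts outside the dominant gene IDs, EGR1 spanned 21.7 to 22.1 CPM in 2 controls and 7.52 to 11.1 CPM in 3 WD camels, with no overlap, as was the case in that direction for 13.2% of all genes tested. In the 5 of lower depth it spanned 11.96 to 21.4 CPM in 3 controls and 14.0 to 21.4 CPM in 2 WD camels, ranges that overlapped. With the depth group as a term in the model, the log2 fold change was -0.74 (edgeR adjusted p = 0.181).

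The other EGR genes had few reads and were not tested in the fit of all 10 libraries with a filter on low counts. EGR3 (ENSCDRG00005015507), needed for the development of muscle spindles, had 18, 12, 11, 14 and 8 counts in CON2, CON3, CON4, CON5 and CON13. It had 5, 7, 10, 3 and 6 counts in WD6, WD7, WD8, WD9 and WD15. These counts gave 1.26 to 9.57 CPM in control (mean 3.91 ± 3.30) and 0.259 to 2.37 CPM in WD (mean 1.26 ± 0.783), and 3 WD libraries lay below every control. The fit without a filter gave a log2 fold change of -1.51 (SE 0.697, edgeR adjusted p = 0.585), and DESeq2 gave -1.56 (SE 0.660, DESeq2 adjusted p = 0.317). The control mean was raised by CON13, where 8 counts made 9.57 CPM, and 1.26 to 3.84 CPM were found in the other controls. Without CON13 and WD6 the fit with no filter gave a log2 fold change of -1.34 (edgeR adjusted p = 0.539). Without CON13 alone, EGR3 passed the filter and its log2 fold change was -1.12 (edgeR adjusted p = 0.738).

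EGR2 (ENSCDRG00005014716), known for its part in hindbrain patterning and in myelination by Schwann cells, spanned 7 to 15 counts in control and 0 to 18 in WD. Its level was 1.03 to 9.57 CPM in control and up to 2.85 CPM in WD, and WD15 had 0 counts, which allows up to 0.625 CPM. EGR4 (ENSCDRG00005004141), a factor found mainly in neurones and germ cells, had at most 10 counts in any library. It lay between 0.459 and 4.78 CPM in control and up to 1.67 CPM in WD, with 0 counts in WD6, which allows up to 1.42 CPM. In the fit without a filter their log2 fold changes were -1.17 (SE 0.801, edgeR adjusted p = 0.737) and -0.61 (SE 0.875, edgeR adjusted p = 0.897). Without CON13 and WD6, the fit with no filter gave -0.93 for EGR2 (edgeR adjusted p = 0.730) and 0.11 for EGR4 (edgeR adjusted p = 0.976), so the sign of EGR4 turned. In the 5 deeper libraries the means were 1.37 CPM in 2 controls and 1.38 CPM in 3 WD camels for EGR2, and 0.742 and 0.928 CPM for EGR4. The EGR2 mean in WD rested on WD8 (2.77 CPM), since WD7 (0.765 CPM) and WD9 (0.605 CPM) lay below both of those controls. Over all 10 libraries, 3 WD libraries lay below every control for EGR2. For EGR4 WD9 (0.432 CPM) did, while the 0 in WD6 could not be placed.

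NR4A1 (ENSCDRG00005011894), also called NUR77 and a regulator of metabolism and dendritic spines in neurones, was higher after WD on average. It had 79, 29, 65, 86 and 20 counts in CON2, CON3, CON4, CON5 and CON13, or 16.9, 6.86, 7.46, 12.6 and 23.9 CPM. In WD6, WD7, WD8, WD9 and WD15 it had 48, 103, 124, 356 and 134 counts, or 22.8, 13.1, 19.1, 30.8 and 27.9 CPM. WD9 and WD15 exceeded every control, WD6 and WD8 exceeded all but CON13, and WD7 lay inside the control range. The mean was 13.5 ± 7.09 CPM in control and 22.7 ± 7.02 CPM in WD. The log2 fold change was 0.88 (SE 0.318, 95% interval 0.21 to 1.55), which did not pass the test (edgeR adjusted p = 0.355).

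CON13 had the highest NR4A1 level among controls, on 20 counts with an exact 95% Poisson interval of 14.6 to 36.9 CPM. Without CON13 the log2 fold change was 1.05, and without both CON13 and WD6 it was 1.04 (SE 0.311, edgeR adjusted p = 0.183). Within the 5 deeper libraries the ranges did not overlap, at 7.46 to 12.6 CPM in 2 controls and 13.1 to 30.8 CPM in 3 WD camels, as was the case in that direction for 13.5% of all genes tested. Within the 5 of lower depth they did, at 6.86 to 23.9 CPM in 3 controls and 22.8 to 27.9 CPM in 2 WD camels. The lowest edgeR adjusted p over all alternatives was 0.109, with the depth group as a covariate.

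NR4A2 and NR4A3 did not share a direction. NR4A2 (ENSCDRG00005001248, NURR1), known for its need in midbrain dopamine neurones, had 26, 27, 20, 15 and 6 counts in CON2, CON3, CON4, CON5 and CON13, or 5.55, 6.39, 2.30, 2.20 and 7.17 CPM. In WD it had 0 counts in WD6 and 22, 27, 26 and 12 in WD7, WD8, WD9 and WD15, or 2.81, 4.15, 2.25 and 2.5 CPM in those 4. The 0 in WD6 allows up to 1.42 CPM, and the other WD libraries all lay within the control range. The log2 fold change was -0.82 (SE 0.559, 95% interval -1.99 to 0.36, edgeR adjusted p = 0.709), -0.58 without WD6, and -0.47 without CON13 and WD6. In the 5 deeper libraries the order was not the same, with 2.20 to 2.30 CPM in 2 controls and 2.25 to 4.15 CPM in 3 WD camels.

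NR4A3 (ENSCDRG00005015259, NOR1), first found in cultured neurones, had 13, 11, 11, 9 and 4 counts in CON2, CON3, CON4, CON5 and CON13, or 2.78, 2.60, 1.26, 1.32 and 4.78 CPM. It had 13, 25, 18, 40 and 9 counts in WD6, WD7, WD8, WD9 and WD15, or 6.17, 3.19, 2.77, 3.46 and 1.88 CPM. WD6 was the only library above every control, and WD15 lay below the control median of 2.60 CPM. The log2 fold change was 0.61 (SE 0.505, 95% interval -0.46 to 1.67, edgeR adjusted p = 0.780), 0.37 without WD6, and 0.54 without CON13 and WD6. Within the deeper libraries it was 1.26 to 1.32 CPM in 2 controls and 2.77 to 3.46 CPM in 3 WD camels. Such a lack of overlap in that direction was found for 13.5% of all genes tested.

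NPAS4 (ENSCDRG00005016371), whose transcription follows calcium entry more narrowly than that of the other genes, had few reads in most libraries. It had 8, 19, 3, 14 and 1 counts in CON2, CON3, CON4, CON5 and CON13, or 1.71, 4.495, 0.344, 2.05 and 1.20 CPM. In WD it had 23 counts in WD6, or 10.9 CPM, and 6, 5, 10 and 2 counts in WD7, WD8, WD9 and WD15, between 0.417 and 0.864 CPM. The WD mean of 2.75 ± 4.57 CPM therefore rested on 1 library, and the WD median of 0.768 CPM lay below the control median of 1.71 CPM. The fit without a filter gave a log2 fold change of 0.24 (SE 0.843, edgeR adjusted p = 0.962). Without CON13 and WD6 the sign turned, to -1.48 (edgeR adjusted p = 0.560).

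Because EGR1 and NR4A1 pointed in opposite directions, their counts were set against each other inside each library, where library scaling has no part. The pair was chosen with its values known, so the ratio is a description without a test. In control the ratio of NR4A1 to EGR1 counts was 0.790 in CON2, 0.420 in CON3, 0.344 in CON4 and 0.570 in CON5. CON13 had a ratio of 2.00, from 20 and 10 counts, with an exact 95% Clopper-Pearson interval of 0.894 to 4.79. In WD it was 1.07 in WD6, 1.75 in WD7, 1.72 in WD8, 4.09 in WD9 and 2.00 in WD15. Every control other than CON13 lay below every WD library, and the groups overlapped through CON13 alone. The size of a ratio depends on both transcripts' lengths, so only its difference between libraries can be read. The mean log2 ratio was -0.59 ± 0.997 in control and 0.94 ± 0.700 in WD, a difference of 1.53 that ranged from 1.26 to 1.93 when each library was left out.

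FOS, the AP-1 subunit that shares SRF sites with EGR1 in its promoter, was set against EGR1 in the same way. Its ratio to EGR1 was 0.530 to 1.40 in control (median 0.757) and 1.87 to 7.52 in WD (median 3.403). The highest control value was that of CON13, on 14 FOS and 10 EGR1 counts, and the lowest WD value that of WD6. FOS was chosen for this ratio after its values were seen, and both ratios share the EGR1 counts. FOS alone did not overlap between groups, so this ratio adds no separate observation of EGR1.

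**Figure D2:**
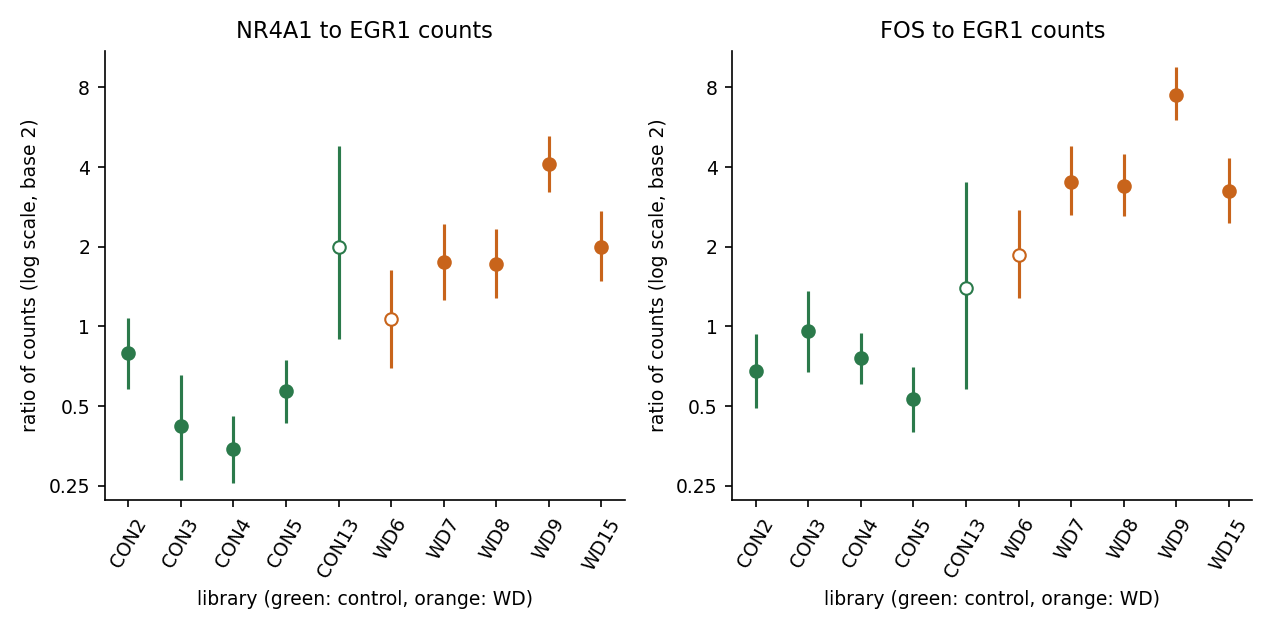
Ratio of NR4A1 to EGR1 counts (left) and of FOS to EGR1 counts (right) in each library, on a log axis of base 2, with control in green and WD in orange. Lines are exact 95% intervals from the counts, and open points are CON13 and WD6. For NR4A1 to EGR1, only CON13 among controls reaches the WD range, and FOS to EGR1 ratios reached 1.40 in control and started at 1.87 in WD.

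Other genes of the same kind were read from lists of activity-induced genes, their regulators and their partners. These lists were chosen with earlier results of these data known, so the shares below describe them and are not a test. In 7 lists, 81 genes were named, 63 had a paired gene ID and 60 were tested. Of these 60, 3 rose (FOS, CREM and SIK1) and 0 fell, where 0.270% of all genes tested rose and 0.229% fell. The log2 fold change was positive in 42 and negative in 18, where 51.9% of all genes tested had a positive one, and 14 had an unadjusted p under 0.05, where 9.31% of all genes did.

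Among AP-1 and related bZIP factors, 2 of 9 tested genes rose, and the median log2 fold change of the list was 0.82. FOS (ENSCDRG00005001172) went from 15 ± 2.03 CPM in control to 41.2 ± 10.96 CPM in WD (log2 fold change 1.48, SE 0.217, edgeR adjusted p = 0.00313). CREM (ENSCDRG00005016686), a cAMP-responsive gene that also encodes the repressor ICER, went from 5.66 ± 2.63 to 21.4 ± 4.31 CPM (log2 fold change 1.77, SE 0.266, edgeR adjusted p = 0.00313). Neither gene overlapped between groups, and both passed the threshold with each library left out, but neither did when library totals replaced TMM scaling (edgeR adjusted p = 0.221 and 0.155). Among the inducible genes that are not transcription factors, 1 of 8 tested rose, SIK1 (ENSCDRG00005012900), a kinase that is induced by cAMP and restrains CREB coactivators. It went from 10.8 ± 3.43 to 25.1 ± 7.81 CPM (log2 fold change 1.27, SE 0.276, edgeR adjusted p = 0.0476). It lost the call in 9 of 10 fits that left out a library, all but the one without WD7, with edgeR adjusted p values up to 0.178. The call was also lost with library totals in place of TMM (edgeR adjusted p = 0.590) and without CON13 and WD6 (edgeR adjusted p = 0.070). In all, 13 alternatives lost it. The list had a median log2 fold change of 0.30.

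None of the 11 other inducible transcription factors tested passed, and their median log2 fold change was 0.21. The smallest p was that of BHLHE40, a clock-linked repressor (log2 fold change 0.53, SE 0.228, edgeR adjusted p = 0.474).

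ARC (ENSCDRG00005013348), an inducible gene whose product acts at synapses, was on the list of inducible genes that are not transcription factors but had no gene ID in the sheets used for lists, and is named after its values were seen. It had 18, 35, 48, 26 and 8 counts in CON2, CON3, CON4, CON5 and CON13, and 2, 13, 12, 13 and 11 in WD6, WD7, WD8, WD9 and WD15. Every WD library lay below every control, at 6.20 ± 2.62 CPM in control and 1.57 ± 0.545 CPM in WD. The log2 fold change was -1.87 (SE 0.446), which did not pass in edgeR (adjusted p = 0.0857) but did in DESeq2 (-1.86, adjusted p = 0.00532). ARC was thus another inducible gene with a lower mean in WD, and its estimate was larger in size than that of EGR1. PER1, a clock gene on the list of other inducible transcription factors and the only other inducible gene placed in the same way, was at 0.49 (edgeR adjusted p = 0.564). Both IDs came from a table ordered by p-value, so these genes are not counted with the lists.

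**Figure D3:**
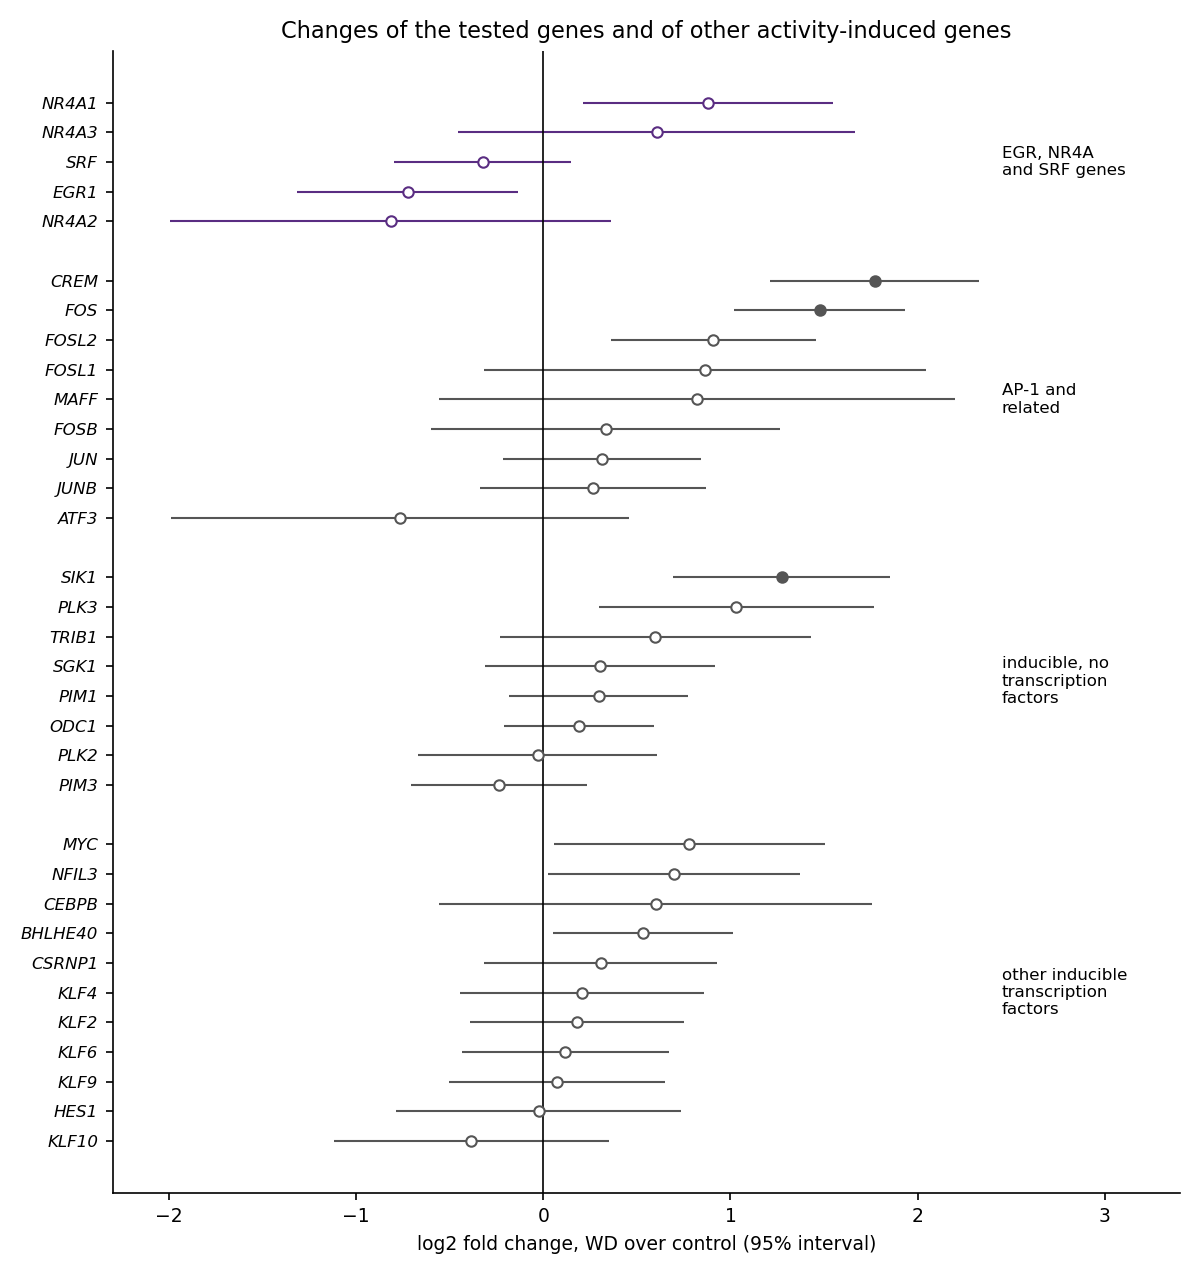
Log2 fold change of WD over control (horizontal axis) with its 95% interval from the edgeR fit, for the 5 tested genes of the group (purple) and the tested genes of 3 lists of activity-induced genes (grey). Filled points passed an adjusted p of 0.05: FOS, CREM and SIK1, all higher in WD. EGR1, NR4A2 and SRF lie on the negative side, and the intervals of EGR1 and NR4A1 lie on opposite sides of 0.

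The known regulators of these genes were read in the same way. None of 7 SRF partners and MEF2 factors passed (median log2 fold change 0.33), and the smallest p was that of MEF2C, a calcium-regulated factor (log2 fold change 0.49, edgeR adjusted p = 0.492). ELK1, a partner of SRF, was the other with an unadjusted p under 0.05 (log2 fold change -0.50, edgeR adjusted p = 0.510), named after its values were seen. None of 3 CREB family activators passed (median 0.17), with CREB1 itself at 0.30 (edgeR adjusted p = 0.762). None of 15 kinases of the ERK, PKA and CaMK routes passed (median 0.01), and 4 had an unadjusted p under 0.05. The smallest p was that of RPS6KA3, a kinase downstream of ERK that phosphorylates SRF and CREB (log2 fold change 0.85, SE 0.272, edgeR adjusted p = 0.261), at 3.59 to 28.1 CPM in control and 28.4 to 40.2 CPM in WD. The other 3, named after their values were seen, were lower in WD: MAPK3, the kinase ERK1, at -0.40, MAP2K2, which activates ERK, at -0.42, and PRKACA, a catalytic subunit of PKA, at -0.38 (edgeR adjusted p = 0.453, 0.492 and 0.524). None of 7 binding partners and cofactors passed either (median -0.03), and RXRG, a retinoid X receptor of the family that pairs with NR4A1 and NR4A2, had the smallest p (log2 fold change -0.91, edgeR adjusted p = 0.671). These values are transcript levels and say nothing of kinase activity or phosphorylation.

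In these bulk samples, fewer cells of a type and less RNA per cell cannot be told apart, so marker genes of the cell types in the punch were read beside the members. Of 39 markers in 6 lists, 26 had a paired gene ID and 24 were tested. With all 10 libraries, 0 passed in edgeR and 8 had an unadjusted p under 0.05, where 9.31% of all genes did. These lists too were chosen with earlier results of these data known. DESeq2 called 1 gene, HEYL of the mural cell list, which was lower in WD (edgeR log2 fold change -1.16, edgeR adjusted p = 0.104, DESeq2 adjusted p = 0.0351). HEYL also passed in edgeR without CON13, WD6 and any filter (-1.23, edgeR adjusted p = 0.0362). The neurone list held 6 genes, and the 2 with a paired gene ID, OTP and SIM1, which specify magnocellular neurones, were present in every library. Their summed level was 66.8 to 140.0 CPM in control and 68.8 to 119.9 CPM in WD, with a log2 fold change of -0.58 for OTP (edgeR adjusted p = 0.454) and -0.04 for SIM1. MYT1L, a neuronal factor of the same list, was paired with 2 gene IDs and is not in that sum. Named after its values were seen, the ID with more counts (ENSCDRG00005014272) was lower in every WD library than in every control, a lack of overlap seen for 2.62% of all genes tested. Its log2 fold change was -0.73 (edgeR adjusted p = 0.0963, DESeq2 adjusted p = 0.00356), and without CON13 and WD6 it passed in edgeR too (-0.82, edgeR adjusted p = 0.0366). The other ID (ENSCDRG00005014339) was at -0.19 (edgeR adjusted p = 0.941). All 6 tested microglia markers had a positive log2 fold change (median 0.80, with PTPRC at 0.90 and an edgeR adjusted p of 0.229), and their summed level was 194.7 to 327.2 CPM in control and 241.3 to 732.2 CPM in WD.

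The summed levels of all 6 marker lists overlapped between groups. Astrocyte markers summed to 41.9 to 55.3 CPM in control and 45.8 to 62.3 in WD, with NFIA at a log2 fold change of 0.23 (edgeR adjusted p = 0.784) and GLIS3 at -0.07 (edgeR adjusted p = 0.968). EMX2, with too few counts to be tested, was at -1.77 in the edgeR fit without a filter (edgeR adjusted p = 0.640). GLIS3 and EMX2 are named after their values were seen. A further 3 listed markers had a gene ID only in the table ordered by p-value and are in no sum. They were the astrocyte enzyme ALDH1L1 (log2 fold change 0.55, edgeR adjusted p = 0.390) and the microglial receptors P2RY12 (0.70, edgeR adjusted p = 0.469) and CX3CR1 (0.94, edgeR adjusted p = 0.242). All 5 oligodendrocyte markers had a negative log2 fold change (median -0.24, OLIG1 at -0.31 with an edgeR adjusted p of 0.798) and summed to 89.0 to 247.0 CPM in control and 84.0 to 196.0 in WD. Endothelial markers summed to 117.8 to 190.0 CPM in control and 141.9 to 271.5 in WD, with FLT1 at 0.62 (edgeR adjusted p = 0.362), and mural cell markers to 49.0 to 72.5 and 42.0 to 59.97 CPM. No paired marker was at 0 counts in all 10 libraries. NR4A1 is also expressed by microglia and endothelium and EGR1 by most cell types, and the part of these cells in the values above was not tested.

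The spread within a group differed between these genes. The within-group SD of log2 CPM was 0.518 for EGR1, 0.645 for NR4A1, 0.736 for NR4A3 and 1.31 for NR4A2, which lay at the 62.1, 75.4, 81.3 and 95.8 percentiles of all genes tested. The SD of the 3 NR4A genes was thus above that of most genes, and that of SRF below. For NR4A2 it includes the 0 in WD6, placed at log2 CPM -2.075 by the prior count. Low counts add to the SD, and counting error was not separated from differences between animals.

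Levels of the members were compared across the 10 libraries for 5 chosen pairs. In these pairs, examined by permutation (100000 resamples), Pearson's r of log2 CPM between EGR1 and NR4A1 was -0.39 (permutation p = 0.261) and Spearman's rho -0.54 (permutation p = 0.115). It was -0.41 without WD7 and WD9, the libraries farthest from the median, and -0.06 after each group was centred on its mean. For NR4A1 and NR4A3, r was 0.53 (permutation p = 0.120) and rho 0.56 (permutation p = 0.0961), with r at 0.42 without CON3 and CON4 and 0.43 after centring. For EGR1 and EGR3, r was 0.52 (permutation p = 0.128) and rho 0.38 (permutation p = 0.279), and r turned to -0.16 without WD7 and WD9 and 0.24 after centring, so the relation rested on those libraries. EGR1 and SRF gave r = 0.19 (permutation p = 0.626) and rho = 0.48 (permutation p = 0.167), and r turned to -0.28 without WD7 and WD9 and to -0.16 after centring. NR4A1 and SRF gave r = -0.05 (permutation p = 0.892) and rho = -0.25 (permutation p = 0.492), with r at 0.17 without CON3 and CON4 and 0.36 after centring. No pair passed after Benjamini-Hochberg adjustment over the 5 pairs, and the lowest adjusted permutation p was 0.320 for r and 0.279 for rho.

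For the 3 genes with at least 300 counts, the most similar of 958 other tested transcription factors were found by Pearson's r of log2 CPM over the 10 libraries, as a description. EGR1 was most like TEF, a circadian bZIP factor (r = 0.81), PRDM8 (0.78) and AHDC1 (0.73), and these values were 0.79, 0.77 and 0.76 without CON13 and WD6. NR4A1 was most like CEBPB, an inflammatory and metabolic bZIP factor (0.81), MYC (0.77) and PRDM1 (0.77), at 0.80, 0.76 and 0.77 without those libraries. SRF was most like PRDM10 (0.94) and ZFP28 (0.93), but these were 0.77 and 0.66 without CON13 and WD6. All genes of a library share its depth and its treatment, and these were not taken out of r. The top of 958 values of r over 10 libraries can be high by selection alone. Values without CON13 and WD6 reuse the other libraries that chose the factors, so they are not a separate check.

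For the 5 genes tested with all libraries, the direction of the estimate held under each of the 22 alternatives in which the gene could be fitted, 10 of which left out a library. EGR1 ranged from -1.07 to -0.58 on the log2 scale, NR4A1 from 0.70 to 1.08, NR4A2 from -1.13 to -0.43, NR4A3 from 0.37 to 0.82 and SRF from -0.42 to -0.18. The span was widest for NR4A2.

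**Figure D4:**
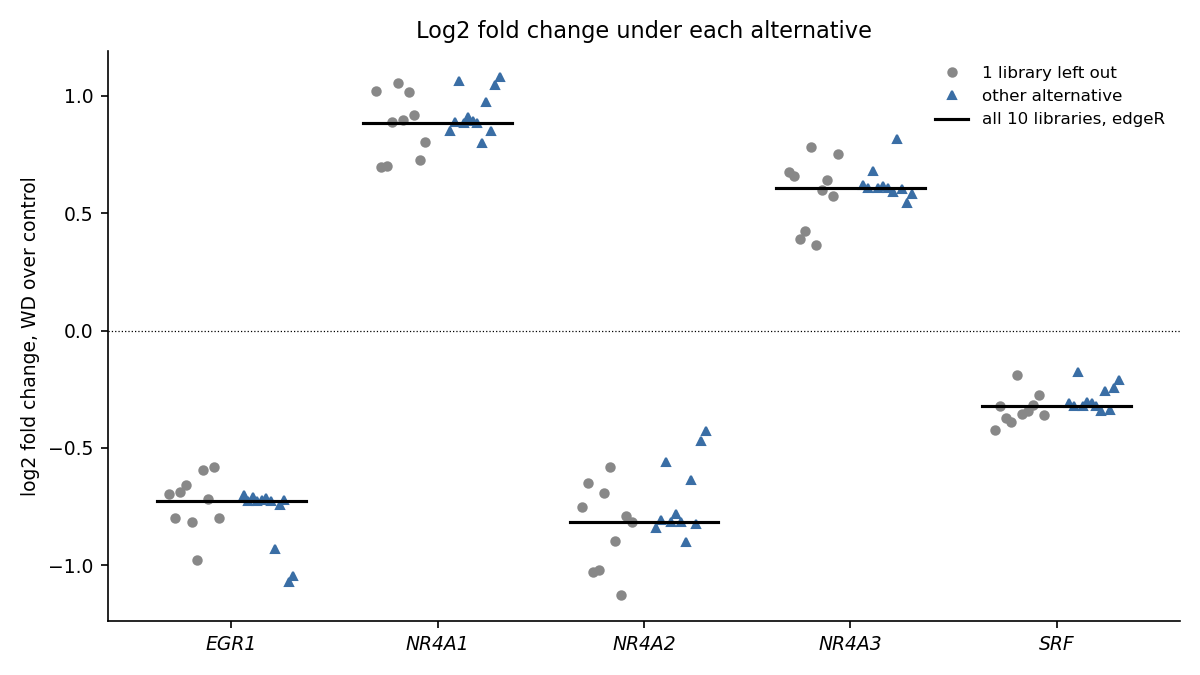
Log2 fold change of WD over control (vertical axis) of the 5 tested genes under each alternative, with grey circles for fits that leave out 1 library, blue triangles for the others and a black bar for the fit with all 10 libraries. No point crosses 0: EGR1, NR4A2 and SRF stay below it and NR4A1 and NR4A3 above it, and the lowest EGR1 value, -1.07, is the fit without CON13 and WD6.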

How the data were processed

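Per the labels and the study's methods, total RNA of 10 rostral SON samples was depleted of ribosomal RNA and sequenced as stranded paired-end libraries. The authors merged and trimmed reads with BBDuk, aligned them to Camdro2 with STAR and counted read pairs per gene with FeatureCounts; the annotation release and strand setting are not given in the sources used here. The deposited table of raw counts was used, without pooling. A deposited table of signal values, counts normalized by the authors with DESeq2 median of ratios, was not used. The fold changes and p-values in the supplementary tables were not used; only their pairs of gene ID and name were.

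Counts were scaled by TMM, filtered by group with filterByExpr and fitted with edgeR 4.0.16 (robust quasi-likelihood F test, Benjamini-Hochberg, threshold 0.05) in R 4.3.3. Group means are CPM ± SD, and log2 CPM used a prior count of 0.5. The common biological coefficient of variation was 0.285. The SE is the log2 fold change over the root of F. DESeq2 1.42.0, other scalings, filters and covariates, and fits without 1 or 2 libraries were the alternatives; the fit without CON13, WD6 and any filter was added after seeing the data. The fit was tested on simulated counts. The interval of a log2 fold change is that SE times the t quantile of the fit; those of single libraries and ratios are exact, with a count of 0 read as up to 3 counts. Scripts in Python 3.11.15 (scipy 1.17.1) made the permutations.

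Each library is 1 animal. The groups share no replicate number. Members and lists were chosen with earlier results of these data known. Named genes are all 9 members, every list gene with an adjusted p of 0.05 or less and the smallest p in each list, and the 3 factors most like each member with at least 300 counts, of which 1 is not reported here. Lists drew gene IDs from sheets of transcription factors, peptides, receptors and enzymes, so genes outside those sheets are not in the list counts. Sequences and promoters were not analysed here, and no coordinates are given.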

Additional observations from a re-analysis of the deposited data

Results flagged for a closer look

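Each of the 9 genes and the ratio of NR4A1 to EGR1 was examined in both groups, 20 in all, for a library that stood apart by Dixon's criterion (a gap of over 0.71 of the group's range of log2 values), which chance alone gives in about 1 of 20 groups. It was met in 2, both through WD6. NR4A2 in WD was lowest in WD6, with 0 counts, and its gap was 0.787 of the range. The 0 allows up to 1.42 CPM, while the other 4 WD libraries lay between 2.25 and 4.15 CPM. The gap depends on the prior count given to the 0: with WD6 at 1.42 CPM it is 0.427 of the range, and the criterion is not met. NPAS4 in WD was highest in WD6, with 23 counts and 10.9 CPM, and its gap was 0.819 of the range, while the other WD libraries lay between 0.417 and 0.864 CPM. WD6 had 73.8% of its counts in the 5 dominant gene IDs, the second most after CON13, and the part of this in both values was not tested.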

How the results depend on the processing

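Of 22 alternatives, 21 called 0 of the 9 genes. The exception, without CON13, WD6 and any filter on low counts, was chosen after seeing the data and called 1, EGR1 (-1.05, edgeR adjusted p = 0.0434). It also reversed EGR4 (0.11, from -0.61) and NPAS4 (-1.48, from 0.24), both far from the threshold; the cause was not tested. Of 125 recomputed log2 fold changes of these genes, the other 122 kept their direction and their side of the threshold. EGR2, EGR3, EGR4 and NPAS4 fell under the filter on low counts in most alternatives and have no value there. The lowest and highest adjusted p was 0.0434 and 1 for EGR1, 0.109 and 1 for NR4A1, 0.531 and 1 for NR4A2, 0.548 and 1 for NR4A3, and 0.493 and 1 for SRF. Over all genes, the 72 calls of edgeR became 209 with DESeq2, 224 with the depth group as a covariate and 10 with library totals in place of TMM, and between 40 (without CON3) and 102 (without WD6) when each library was left out; the cause was not tested. Library totals moved the median log2 fold change of all genes from 0.02 to 0.16, so the values of NR4A1 (1.06), SRF (-0.18) and EGR1 (-0.71) under that scaling are to be read against 0.16. Calls among listed genes were 3, 4 with DESeq2 (which added HEYL), and 2 to 3 with a library left out; with library totals in place of TMM all 3 were lost (FOS 0.221, CREM 0.155 and SIK1 0.590 as edgeR adjusted p). The difference in the mean log2 ratio of NR4A1 to EGR1 ranged from 1.26 to 1.93. No paired analysis was possible because the groups share no replicate numbers and hold different animals. Depth limits EGR2, EGR3, EGR4 and NPAS4 most, with at most 94 counts each over 10 libraries.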
